A study of Xenopus tropicalis with 12 samples.

Results

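The hind limb of untreated TRα (-/-) tadpoles was set against that of T3-treated wild type (WT) tadpoles of the frog Xenopus tropicalis, to ask how near loss of the receptor without hormone comes to the hormone-treated wild-type state. The comparison used 6 of the 12 libraries of the series, chosen by genotype and treatment in the labels: 3 of TRα (-/-) without T3, and 3 of WT given 10 nM T3 for 18 h. The other 6 libraries, 3 of TRα (-/-) with the same T3 treatment and 3 of WT without T3, form a second comparison that shares no library with the first and serve elsewhere as landmarks. All tadpoles were at stages 52 to 54. TRα (-/-) animals lack thyroid hormone receptor α in every cell and keep the gene for thyroid hormone receptor β. They came from crosses of heterozygous frogs. The labels give the WT and TRα (-/-) tadpoles the same parents, whereas the study's methods state that wild-type animals were purchased. Each group was 1 RNA sample merged from several tadpoles, from which 3 technical replicate libraries were made. Every SD and p-value below is therefore a measure of library noise. A difference between 2 RNA pools in origin, stage or dissection cannot be told apart from one of genotype or T3.

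Thyroid hormone receptors are transcription factors that sit on DNA with or without hormone. Without T3 they recruit corepressors and hold target genes low, and with T3 they exchange these for coactivators. TRα is the main form in the tadpole limb before metamorphosis, when its hormone is scarce, and the growth and patterning of the hind limb is among the first changes that the hormone brings about. Loss of TRα removes both activities at once, whereas T3 in WT turns one into the other.

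Library totals were 34722053 to 41118242 counts for TRα (-/-) without T3, against 35530816 to 52430305 counts for WT with T3, and 14320 of 19921 genes were counted well enough to be tested. The identifiers in the file carry no gene names, and none matched the name table used here, so neither the knocked-out gene nor the markers of limb tissues could be checked in these libraries. The exception was the mitochondrial sequence, on which 13 protein-coding genes were named by exact coordinates. In bulk tissue, fewer cells of a type and less RNA per cell cannot be told apart. Levels are given as CPM, counts scaled to a common library size, with each library total multiplied by its trimmed mean of M-values (TMM) factor. These factors were 0.8542 to 0.8756 in TRα (-/-) without T3 and 1.3169 to 1.353 in WT with T3, a wide gap that reappears below.

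The 2 groups differed widely. A gene was called at a Benjamini-Hochberg adjusted p under 0.05 in edgeR's quasi-likelihood test and a difference of 2-fold or more. In TRα (-/-) without T3 3057 genes were higher than in WT with T3, which is 21.3% of the genes tested, and 2085 were lower, which is 14.6%. The sum, 5142 genes, is 35.9% of those tested. With TMM factors the differences were larger on the higher side. There 1051 genes differed by 4-fold or more and 132 by 16-fold or more, against 392 and 22 genes on the lower side. Log2 differences shift with the scaling, as described below, and these tiers were not counted without TMM factors. At the other end, 5979 genes (41.8%) lay within 1.5-fold of each other in the 2 groups and 2845 (19.9%) within 1.2-fold, whatever their p. The libraries of the 2 groups did not overlap for 6277 genes on the higher side and 5932 on the lower side, 85.3% of those tested. With each group summed to 1 library and a spread between pools assumed at a BCV (biological coefficient of variation) of 0.4, which was not measured here, 345 genes were higher and 88 lower.

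**Figure D1:**
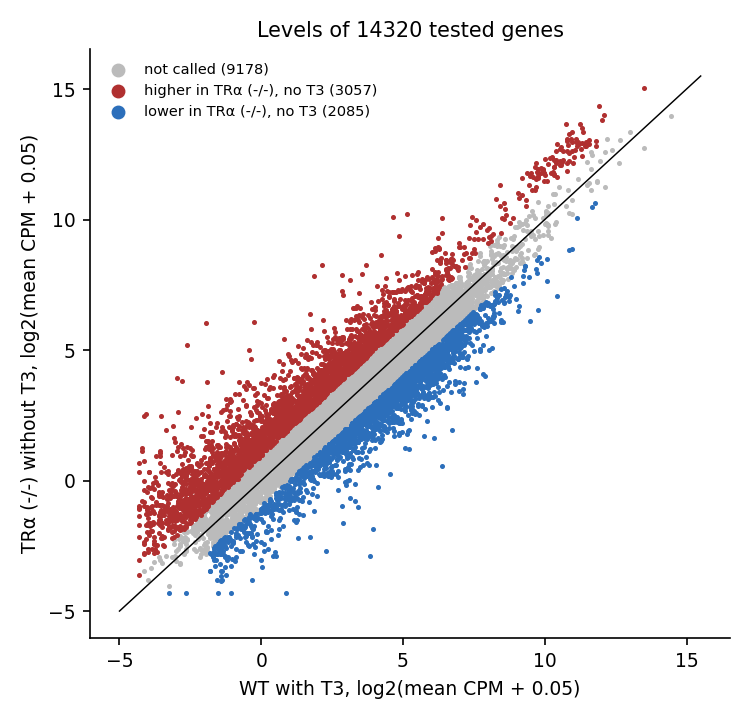
Mean level of each of the 14320 tested genes, as log2(mean CPM + 0.05), in TRα (-/-) without T3 (y axis) and in WT with T3 (x axis), with a line at equal levels. Of the points, 3057 are called higher and 2085 lower in TRα (-/-) without T3, and the most abundant genes at the top right lie mostly above the line.

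The balance between higher and lower depended on the scaling. With total counts alone, that is without TMM factors, 1622 genes (11.3%) were higher and 4888 (34.1%) lower, 6510 in all (45.5%), and the log2 difference of the median gene moved by -0.63. Of the genes called, 24.9% were then on the higher side, against 59.5% with TMM factors. The same direction was called under both scalings for 3707 genes. Relative to the median gene the comparison is as given above. A statement that more genes were higher than lower holds under TMM scaling and turns round under total counts.

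How far apart the groups stood was measured by the median absolute difference in log2 CPM between 2 libraries. TRα (-/-) without T3 was 0.72 from WT with T3, as the mean of 9 library pairs that ran from 0.71 to 0.722. It was 0.50 from WT without T3 (0.491 to 0.50) and 0.45 from TRα (-/-) with T3 (0.443 to 0.467). Libraries of 1 group differed by 0.10 in TRα (-/-) without T3 and by 0.08 in WT with T3. The untreated knockout was thus nearer to the untreated wild type than to the treated one, and these 3 ranges of library pairs did not overlap. With total counts alone the order was kept, at 0.90 from WT with T3, 0.51 from WT without T3 and 0.47 from TRα (-/-) with T3. For scale, WT with T3 was 0.94 from WT without T3 (0.935 to 0.943) and 0.40 from TRα (-/-) with T3 (0.391 to 0.416). These distances share libraries with each other and are descriptions.

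**Figure D2:**
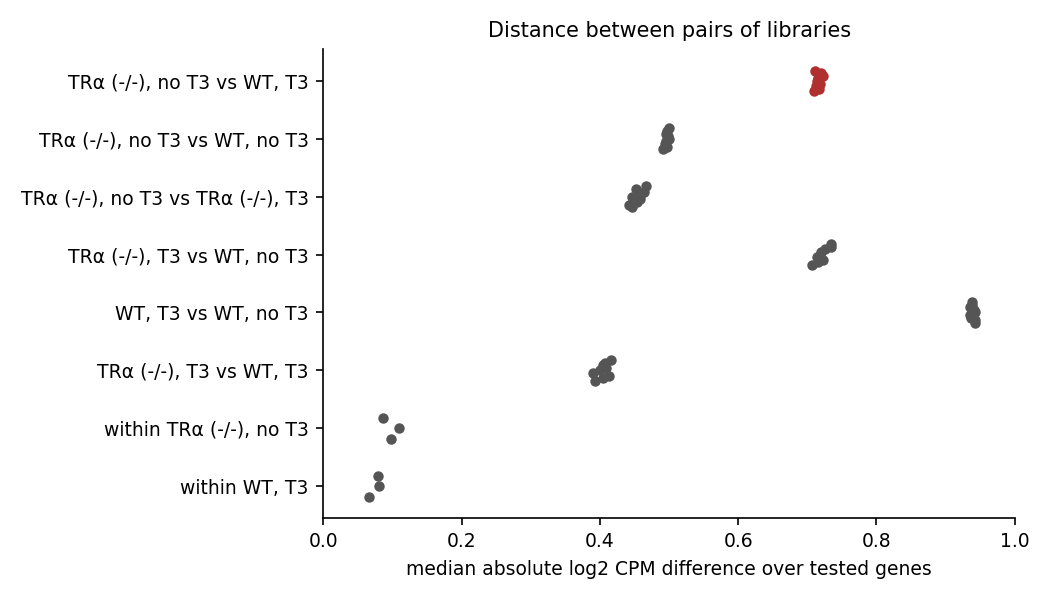
Median absolute difference in log2 CPM (x axis) between single libraries, for each pair of groups (rows). Each point is 1 pair of libraries. The 9 pairs of TRα (-/-) without T3 and WT with T3 lie between 0.71 and 0.722, those of TRα (-/-) without T3 and WT without T3 between 0.491 and 0.50.

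The genes that T3 changed in WT were described in the same way. T3 changed 6863 genes in WT (47.9% of those tested), of which 3263 (22.8%) were raised and 3600 (25.1%) lowered. For the raised list the median level was 9.05 CPM in TRα (-/-) without T3 and 19.9 CPM in WT with T3, with 14.7 CPM in TRα (-/-) with T3 and 4.78 CPM in WT without T3. The median log2 difference of TRα (-/-) without T3 over WT with T3 was -1.03 (quartiles -1.55 and -0.56), against 0.04 over all genes tested. The untreated knockout level of this list lay between the 2 wild-type levels.

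For the lowered list the median level was 8.65 CPM in TRα (-/-) without T3 and 3.41 CPM in WT with T3, with 5.67 CPM in TRα (-/-) with T3 and 13.1 CPM in WT without T3. The median log2 difference of TRα (-/-) without T3 over WT with T3 was 1.39 (quartiles 0.84 and 2.03). Set against WT without T3, the untreated knockout had a median log2 difference of 0.83 (quartiles 0.38 and 1.43) on the raised list and -0.50 (quartiles -0.96 and -0.08) on the lowered list. T3 in WT itself had medians of 1.76 and -1.76. The lists were chosen with the WT libraries with T3, which the first comparison also uses, and with those without T3, which the second uses. Their direction away from the wild type is thus partly fixed by the choice, and the medians stand side by side with no test.

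**Figure D3:**
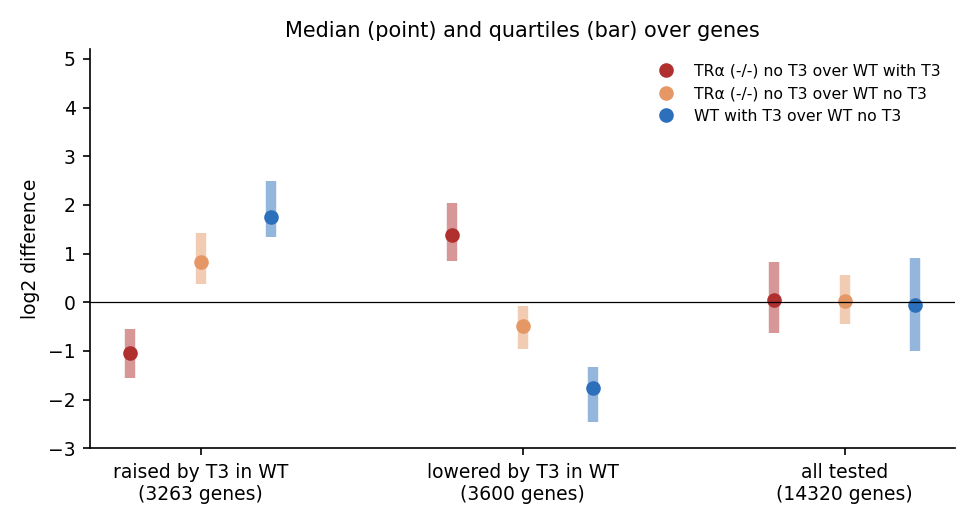
Log2 differences of the genes raised and lowered by T3 in WT, and of all genes tested, in comparisons that share libraries. Points are medians and bars run from the lower to the upper quartile over genes. For TRα (-/-) without T3 over WT with T3 the medians are -1.03 for the raised list and 1.39 for the lowered list.

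The other 6 libraries gave a comparison that shares no library with this one, TRα (-/-) with T3 over WT without T3. It called 5208 genes (36.4%), with 2787 higher (19.5%) and 2421 lower (16.9%). There were 2774 genes called in both comparisons. For 2570 of these the directions were opposite, which is 49.98% of the genes called in TRα (-/-) without T3 over WT with T3 and 49.35% of those called in TRα (-/-) with T3 over WT without T3. For 204 the directions were the same, 4.0% and 3.9% of the 2 lists. In genes shared by the lists the direction mostly went with the T3 treatment of the pool and seldom with its genotype. A T3 response that is weaker or absent in the knockout can also give opposite directions, where the knockout levels lie between the wild-type ones. These genes can thus still differ by genotype. Across the 14320 genes the 2 log2 differences had Pearson's r of -0.55 and Spearman's rho of -0.58, given with no p because genes are not independent replicates.

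**Figure D4:**
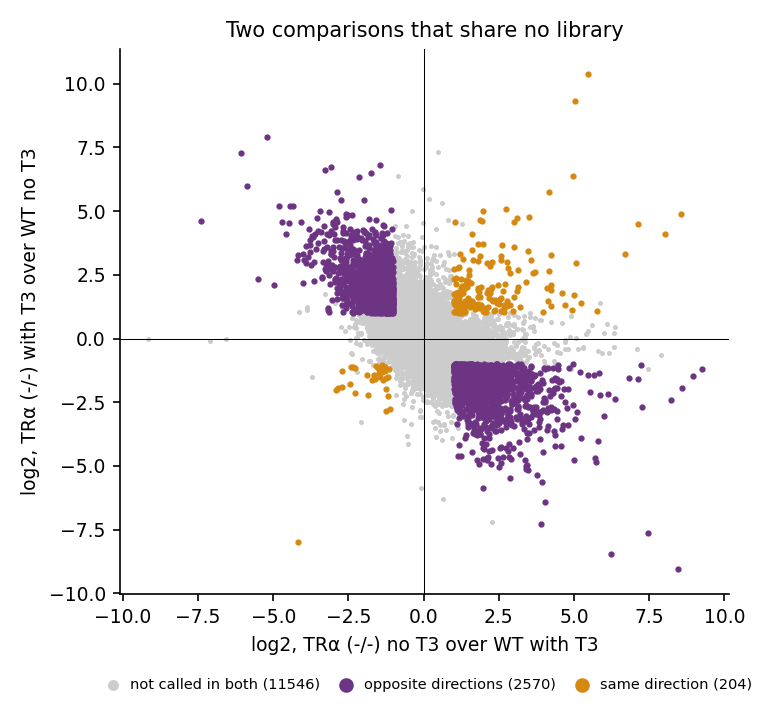
Log2 difference of each tested gene in TRα (-/-) without T3 over WT with T3 (x axis) and in TRα (-/-) with T3 over WT without T3 (y axis), 2 comparisons with no library in common. Genes called in both are coloured: 2570 have opposite directions and 204 the same direction.

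Genes called lower in TRα (-/-) with T3 over WT without T3 had a median log2 difference of 1.13 (quartiles 0.45 and 1.96) in TRα (-/-) without T3 over WT with T3, and 54.3% of them were called higher there, against 21.3% of all genes. Genes called higher in TRα (-/-) with T3 over WT without T3 had a median of -0.88 (quartiles -1.53 and -0.28), and 45.1% of them were called lower, against 14.6% of all genes. The calls in the opposite sense were 1.4% and 6.1% of the same lists. Since the lists came from other libraries, the choice did not fix these directions.

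The genes with opposite directions had their extremes in the wild type. The 1314 genes that were higher in TRα (-/-) without T3 and lower in TRα (-/-) with T3 had median levels of 8.17 CPM in TRα (-/-) without T3 and 2.16 CPM in WT with T3, and of 3.70 CPM in TRα (-/-) with T3 and 13.8 CPM in WT without T3. The 1256 genes of the mirror pattern had 8.08 CPM in TRα (-/-) without T3 and 27.1 CPM in WT with T3, and 18.9 CPM in TRα (-/-) with T3 and 4.27 CPM in WT without T3. In both sets the 2 knockout medians lay inside the range of the wild-type medians.

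The direction went with genotype in both comparisons for 204 genes, and their median levels were low. This number is not a count of all genes that differed by genotype at one T3 state. The 171 genes higher in both comparisons had a median of 3.49 CPM in TRα (-/-) without T3 and 0.55 CPM in WT with T3, and of 2.60 CPM in TRα (-/-) with T3 and 0.61 CPM in WT without T3. The 33 genes lower in both had 0.16 CPM in TRα (-/-) without T3 and 0.83 CPM in WT with T3, and 0.23 CPM in TRα (-/-) with T3 and 0.78 CPM in WT without T3. With at least 10 counts required in every library, 109 genes had the same direction in both comparisons and 2089 opposite directions. That filter also drops genes nearly silent in a single group, so it cannot tell calls on sparse counts from strong differences.

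A further 2368 genes (46.1% of those called) were called in TRα (-/-) without T3 over WT with T3 alone. The 1572 higher ones had a median of 8.13 CPM in TRα (-/-) without T3 and 2.77 CPM in WT with T3, with 5.60 CPM in TRα (-/-) with T3 and 6.82 CPM in WT without T3, so that WT with T3 stood apart from the other 3 groups. The 796 lower ones had 7.61 CPM in TRα (-/-) without T3 and 18.6 CPM in WT with T3, with 11.5 CPM in TRα (-/-) with T3 and 9.16 CPM in WT without T3. A call in one comparison and not in the other is no test of a difference between them, and that difference was not tested.

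A small number of genes was detected in 1 of the 2 groups alone. Detection meant at least 10 counts in each library of one group and at most 3 counts summed over the other, with no scaling for library size. Of the 19921 genes in the file, 31 were found in TRα (-/-) without T3 and not in WT with T3. In the reverse sense 9 were found in WT with T3 and not in TRα (-/-) without T3. Levels of the 31 had a median of 0.69 CPM and reached 5.85 CPM. Of these genes 13 had at least 10 counts in each library of WT without T3 as well, and 10 in each library of TRα (-/-) with T3. Of the 9 genes, 8 were tested and reached 1.79 CPM. Among all 9, 6 had at most 3 counts in WT without T3 and 3 in TRα (-/-) with T3.

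By the rule for named genes, which took the largest fold and the largest CPM difference in each direction, 4 genes are described by identifier. ENSXETG00000034055 (scaffold GL173157.1 from 371537 to 378863, plus strand, 6 exon blocks) had 172, 160 and 202 counts in TRα (-/-) without T3, against 1, 0 and 0 counts in WT with T3. It was thus next to undetected in the treated wild type and well counted in all 3 knockout libraries. Its level was 5.49 ± 0.37 CPM in TRα (-/-) without T3 (SD, n = 3), and 1.85 CPM in TRα (-/-) with T3 and 4.33 CPM in WT without T3. The scaled ratio of the summed counts was 927 (95% exact interval 166 to 36700, for counting error only), resting on 1 count in WT with T3, and edgeR's adjusted p was 4.55e-20.

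ENSXETG00000021236 (scaffold GL173096.1 from 131590 to 134900, plus strand, 4 exon blocks) had the largest CPM difference on the higher side. Its libraries held 16319.1, 16270.8 and 16645.5 CPM in TRα (-/-) without T3, against 4271.6, 4503.2 and 4293.4 CPM in WT with T3. The log2 difference was 1.91 ± 0.03 (SE, edgeR adjusted p = 3.82e-27). WT with T3 was the odd group, as the gene averaged 15449 CPM in TRα (-/-) with T3 and 17799.7 CPM in WT without T3.

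ENSXETG00000007922 (scaffold GL173084.1 from 1014611 to 1015618, plus strand, a single exon) had 3, 4 and 1 counts in TRα (-/-) without T3, against 633, 1002 and 781 counts in WT with T3. The scaled ratio was 0.00575 (95% exact interval 0.00248 to 0.0113, for counting error only), with a log2 difference of -7.39 ± 0.18 (SE, edgeR adjusted p = 1.38e-22). For this gene TRα (-/-) without T3 and WT without T3 did not differ beyond their spread, at 0.08 ± 0.05 and 0.09 ± 0.04 CPM (SD, n = 3 each; edgeR adjusted p = 0.904). TRα (-/-) with T3 stood between them and WT with T3, at 2.21 CPM against 14.3 CPM.

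ENSXETG00000010783 (scaffold GL172638.1 from 2498757 to 2554566, minus strand, 55 exon blocks) had 1617.7, 1597.2 and 1597.8 CPM in TRα (-/-) without T3, against 3465, 3534.2 and 3430.5 CPM in WT with T3. The log2 difference was -1.12 ± 0.03 (SE, edgeR adjusted p = 3.03e-23). Unlike ENSXETG00000007922, its level in the untreated knockout stood well above the 784.2 ± 7.34 CPM of WT without T3 (SD, n = 3) and below the 2166.7 CPM of TRα (-/-) with T3. The untreated knockout was thus near the untreated wild type for ENSXETG00000034055, ENSXETG00000021236 and ENSXETG00000007922, and between the wild-type levels for ENSXETG00000010783.

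Abundant genes were mostly lower in WT with T3 than in the untreated knockout. Of the 142 genes at a mean of 1000 CPM or more over the 4 groups, 100 (70.4%) were higher in TRα (-/-) without T3 and 3 (2.1%) lower, against 21.3% and 14.6% of all genes, with a median log2 difference of 1.56. With total counts alone 66 were higher and 12 lower, with a median of 0.93, so the direction stayed while the size moved. In each library the 100 genes with the most counts held 56.5 ± 0.52% of all counts in TRα (-/-) without T3 and 37.2 ± 0.51% in WT with T3 (SD, n = 3 each). The share was 51.9 ± 0.27% in TRα (-/-) with T3 and 55.0 ± 0.09% in WT without T3 (SD, n = 3 each), so that WT with T3 was the group that stood apart. The difference of 19.3 percentage points had an exact permutation p of 0.1, two-sided, which is the smallest that 3 against 3 libraries can give. Of the 100 most abundant genes by mean CPM over the 2 groups, 78 were called higher and 2 lower in TRα (-/-) without T3. Of the 67 with under 1000 bp of exon, 63 were among the higher ones. With total counts alone the same 100 gave 52 higher and 8 lower, and the short ones were not counted apart. Over all genes tested, 28.2% of those under 500 bp and 26.6% of those from 500 to 1000 bp were higher, not far above the 21.3% of all genes. The 142 and the 100 genes were chosen by mean levels that include the compared libraries, so a gene high in either group enters more easily. Their counts of calls are descriptions with no test. The share of counts in abundant genes moved with the TMM factors across the 2 groups, and its part in the other differences was not tested.

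At the low end, 688 of the 1736 genes under a mean of 1 CPM (39.6%) were higher in TRα (-/-) without T3 and 230 (13.2%) lower. In the range from 10 to 100 CPM, which held 6736 genes, the shares were 14.3% and 15.8%. Genes higher in the knockout also had somewhat shorter exons in sum, with a median of 1605 bp against 1747 bp for the lower ones and 1761 bp for all genes tested, and 6.5% of them had a single exon, against 4.3% and 4.4%. These are descriptions of the lists and share the counts that made the calls.

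The mitochondrial genome encodes subunits of the respiratory chain and of ATP synthase, read as long transcripts that are cut into single messengers. Of 23 mitochondrial genes tested, 7 (30.4%) were higher in TRα (-/-) without T3 and 0 lower, against 21.3% and 14.6% of all genes (edgeR). Only 2 of the 7 were protein-coding, COX1 and COX3. Another was the unnamed gene from 69 to 1011, whose counts varied widely between the WT libraries with T3. At an unadjusted p under 0.05 with no fold limit 21 of the 23 were higher and 0 lower, and DESeq2 called 6 higher and 0 lower. Tallies without a fold limit are large for all genes too. Even at an adjusted p under 0.05 (edgeR), 6288 of the 14320 genes tested were then higher and 5905 lower. DESeq2 called 2925 of all genes higher and 2203 lower. With total counts alone the tally was 1 higher and 0 lower by the same calls, and at an unadjusted p under 0.05 it was 10 higher and 4 lower. COX1, the catalytic subunit of cytochrome c oxidase (MT from 5395 to 6951), had 8346.4, 8274.2 and 7812.6 CPM in TRα (-/-) without T3, against 3662.4, 3684.3 and 3378 CPM in WT with T3. Its log2 difference was 1.19 ± 0.04 (SE, edgeR adjusted p = 8.57e-21). COX3, another subunit of that enzyme (MT from 8715 to 9498), had a log2 difference of 1.01 ± 0.04 (SE, edgeR adjusted p = 2.21e-17), on the line of 2-fold. It fell below that line with DESeq2, at 0.96, and without replicate 1 or 2 of TRα (-/-) without T3, at 0.985 and 0.992, or replicate 1 or 3 of WT with T3, at 0.992 and 0.957. With total counts alone none of the 13 protein-coding genes passed 2-fold. COX1 then stood at 0.56, ATP8 and ATP6 turned negative at -0.33 and -0.34, and ND6, slightly negative under TMM scaling at -0.06, stood at -0.69.

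The remaining protein-coding genes lay under 2-fold, most of them close together. The 6 genes of NADH dehydrogenase on the plus strand (ND1, ND2, ND3, ND4L, ND4 and ND5) had log2 differences of 0.64 to 0.77, COX2 had 0.80 and CYTB, the cytochrome b of complex III, had 0.69. The ATP synthase genes ATP8 and ATP6 were lower in the order, at 0.30 ± 0.09 and 0.29 ± 0.09 (SE, edgeR adjusted p = 0.00418 and 0.00462), and turned negative under total counts as given above. ND6, on the minus strand, had 5.78 ± 1.51 CPM in TRα (-/-) without T3 and 6.03 ± 1.05 CPM in WT with T3 (SD, n = 3 each; edgeR adjusted p = 0.73). Per kilobase of exon, COX3 had 9124 CPM in TRα (-/-) without T3 and 4544 CPM in WT with T3, and COX2 had 8214 CPM and 4724 CPM in the same groups, so that COX3 led in the knockout and COX2 in the treated wild type. ND6 was the lowest in both, at 11.1 CPM in TRα (-/-) without T3 and 11.6 CPM in WT with T3. ATP8 with ATP6, ND4L with ND4 and ND5 with ND6 overlap in the annotation, and reads in the overlaps cannot be told apart.

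A ratio of counts within a library does not depend on scaling. COX1 over ATP6 was 6.143, 6.057 and 7.004 in the libraries of TRα (-/-) without T3, against 3.403, 3.116 and 3.804 in those of WT with T3. The means were 6.401 ± 0.52 and 3.44 ± 0.35 (SD, n = 3 each), with no overlap and an exact permutation p of 0.1, two-sided, the smallest possible here. Of the protein-coding genes on the plus strand, COX1 had the largest log2 difference (1.19) and ATP6 the smallest (0.29). A gap in their ratio thus restates those values, and the permutation p is no separate test. The ratio was 5.01 ± 0.55 in TRα (-/-) with T3 and 12.5 ± 1.18 in WT without T3, so that the untreated knockout stood between the 2 wild-type groups. COX3 over ATP6 kept the same order, at 5.62 in TRα (-/-) without T3 and 3.42 in WT with T3, and 5.07 in TRα (-/-) with T3 and 10.9 in WT without T3. The share of all counts from mitochondrial genes was 2.80 ± 0.18% in TRα (-/-) without T3 and 2.47 ± 0.18% in WT with T3, where the libraries overlapped (exact permutation p = 0.2, two-sided). It was 2.12 ± 0.14% in TRα (-/-) with T3 and 1.56 ± 0.02% in WT without T3 (SD, n = 3 each), so that for this share the untreated knockout did not lie between the wild-type groups. With each library's 100 most abundant nuclear genes left out, it was 6.27 ± 0.31% in TRα (-/-) without T3 and 3.86 ± 0.28% in WT with T3 (SD, n = 3 each), with no overlap. It was then 4.35% in TRα (-/-) with T3 and 3.43% in WT without T3. The 100 most abundant genes held 56.5% of counts in TRα (-/-) without T3 and 37.2% in WT with T3. Leaving such genes out removes more counts from the knockout, so the wider gap largely restates that difference in composition. ND1 likewise averaged 1123.6 CPM in TRα (-/-) without T3 and 694.5 CPM in WT with T3, against 441.2 CPM in WT without T3. COX1 averaged 8144.4 CPM in TRα (-/-) without T3, 3574.9 CPM in WT with T3 and 5154.2 CPM in WT without T3. With TMM factors, all 13 protein-coding genes were higher in the untreated knockout than in WT without T3. The log2 differences ran from 0.66 (COX1) to 1.83 (ATP8).

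**Figure D5:**
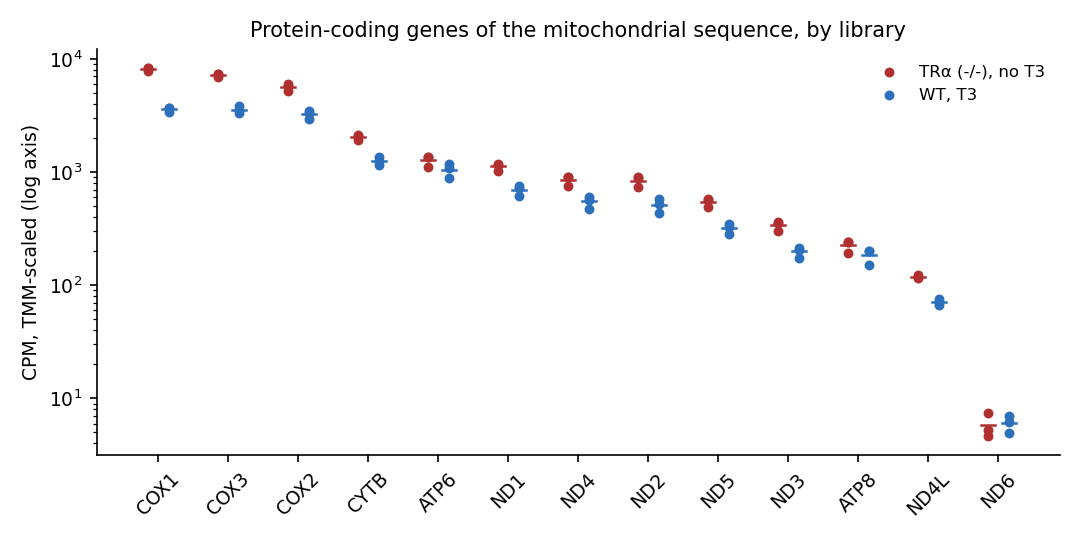
Levels of the 13 mitochondrial protein-coding genes in CPM on a log axis, 1 point per library and a bar at the mean of 3, for TRα (-/-) without T3 (left of each pair) and WT with T3 (right). COX1 shows the widest gap, at 8144.4 and 3574.9 CPM, and the libraries of ATP6, ATP8 and ND6 overlap between the groups.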

How the data were processed

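Hind limb RNA of 12 libraries was sequenced after poly-A selection, as 100 nt paired-end reads. The deposited table holds whole-number read counts for each gene, which the authors made by mapping to the JGI 4.2 X. tropicalis assembly and counting over exons, with STAR 2.5.3a and featureCounts 1.4.6-p3 per the submitters' processing notes (the study's methods give other versions). Strand handling and multi-mapping reads are not given in the sources used here, so overlapping genes, 720 of those tested by span, and near-identical genes are uncertain. Poly-A selection bears on the mitochondrial values.

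Genes were kept by filterByExpr and fitted over all 12 libraries with TMM factors and 1 mean per group in R 4.3.3 with edgeR 4.0.16 (glmQLFit, glmQLFTest). The comparisons and lists were chosen with earlier results of these data known. The fit was tested on simulated data with few genes changed, equally in both directions. That test did not cover a gap in TMM factors as wide as the one between these groups. The common biological coefficient of variation (BCV) was 0.0421, a technical value. Libraries of a group differed by more than sampling noise, so none was counted as a duplicate. Distances used log2 CPM with a prior count of 2. Alternatives were DESeq2 1.42.0, its size factors, total counts alone, 2 other filters, the compared groups alone, the replicate number as a block, a test against 2-fold, no fold limit, summed libraries with an assumed BCV, and leaving out each library. The named genes were those with the largest absolute log2 difference and the largest CPM difference in each direction, among called genes with at least 5 CPM in the higher group, no overlap between libraries and no overlap with another gene. Of the 19921 identifiers, 0 matched the RefSeq name table (UCB_Xtro_10.0). Its 13 mitochondrial protein-coding genes were matched by identical start and end, and the gene lists planned by symbol were not analysed here.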

Additional observations from a re-analysis of the deposited data

How the results depend on the processing

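The main limits are that each group is 1 RNA pool, that gene names were not used, and that the scaling decides the balance of higher and lower genes. For TRα (-/-) without T3 over WT with T3, summed libraries gave 2931 higher and 2021 lower genes at an assumed spread between pools (BCV) of 0.2, and 345 and 88 at 0.4. At 0.4 TRα (-/-) with T3 over WT without T3 gave 408 and 213, with 16 genes in the same and 119 in opposite directions. Without the fold limit 6288 genes were higher and 5905 lower, the other comparison gave 5930 and 6088, and 2381 genes had the same and 8081 opposite directions. Total counts alone gave 1622 and 4888. The test against 2-fold left 107 genes in the same direction, and at least 10 counts in every library left 109.

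The median absolute log2 difference over genes in the edgeR fit was 0.719, a measure apart from the distance between library pairs given above. It became 0.727 with DESeq2, 0.725 with its size factors, 0.912 with total counts, 0.782 without the filter and 0.675 with at least 10 counts. The median for genes raised by T3 in WT, -1.03, became -1.062 with DESeq2, -1.059 with its size factors, -1.429 with total counts and -1.057 without the filter. For genes lowered by T3 in WT, 1.39 became 1.377, 1.375, 1.148 and 1.419 in the same order, and 1.291 with at least 10 counts. Of the mitochondrial protein-coding genes, 2 were called, which became 1 with DESeq2, its size factors, no filter or the compared groups alone, where COX3 lay just under 2-fold, and 0 with total counts. The cause of the other shifts was not tested.

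When 1 library at a time was left out there were 3074 to 3115 higher and 2082 to 2134 lower genes, and 2790 to 2845 and 2409 to 2467 in the other comparison. Opposite directions held for 2560 to 2604 genes and the same direction for 201 to 218. The median absolute log2 difference of the fit was 0.722 to 0.728, the list medians -1.043 to -1.036 and 1.387 to 1.401. Of the mitochondrial protein-coding genes 1 to 2 were called. The mitochondrial share differed by 0.229 to 0.429 percentage points. With all libraries it differed by 2.41 points outside the 100 most abundant nuclear genes, where the unequal share of those genes enters as well. The share of the 100 most abundant genes differed by 19.0 to 19.6 points, and that of the 50 most abundant by 12.5. The labels do not say what the replicate number marks. Over all genes the deviations of same-numbered libraries of the 2 groups had correlations of -0.02 to 0.07, so the libraries were not treated as pairs, and with the replicate number as a block 3054 genes were higher and 2085 lower.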

Other observations

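Genes called alike lay next to each other somewhat more often than in the whole set. Only nuclear genes were counted. Of the 2886 genes higher in TRα (-/-) without T3 that had a tested neighbour on their scaffold, 837 (29.0%) had a nearest neighbour that was also higher. This was so for 20.8% of all 13667 nuclear genes with a neighbour. On the lower side it was 374 of 1981 (18.9%), against 14.8%. Within 10000 bp the shares were 26.3% against 19.0% and 21.6% against 16.1%. These shares are descriptions, with no test.

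Runs of at least 5 consecutive tested genes called in 1 direction numbered 19 on the higher side, the longest of 9 genes, and 3 on the lower side, the longest of 6. They were chosen after their values were seen. The 9 genes on scaffold GL172699.1 from 369707 to 689625 summed to 107.6, 105.0 and 108.6 CPM in the libraries of TRα (-/-) without T3, against 10.7, 9.88 and 10.8 CPM in those of WT with T3. Their sum was 53.9 CPM in TRα (-/-) with T3 and 200.5 CPM in WT without T3, and all 9 were called lower in TRα (-/-) with T3 over WT without T3. The untreated knockout here sat between the wild-type levels. By span 3 of these 9 genes, and 1 of the 8 genes that follow, overlap another gene, so their counts are less certain. The 8 genes on scaffold GL173117.1 from 40496 to 381265 had 294.4 ± 5.39 CPM in TRα (-/-) without T3 and 52.96 ± 0.12 CPM in WT with T3 (SD, n = 3 each), with 365.4 CPM in WT without T3.

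Another run did not follow that order. The 7 genes on scaffold GL172646.1 from 5071172 to 5183110 summed to 30.4, 30.5 and 29.6 CPM in TRα (-/-) without T3, against 4.12, 3.39 and 3.95 CPM in WT with T3. The sums were 6.18, 7.37 and 7.05 CPM in TRα (-/-) with T3, above every library of WT with T3, and 4.53 CPM on average in WT without T3. By sum the untreated knockout thus stood apart from the other 3 groups. Single genes varied, with log2 differences of TRα (-/-) with T3 over without T3 from -5.33 to -0.25. Those of TRα (-/-) without T3 over WT without T3 ran from 0.82 to 6.41. With each group a single pool, a feature of that pool and one of its genotype cannot be told apart. On the lower side, 5 genes on scaffold GL172684.1 from 2851458 to 2922497 had 78.8 ± 1.75 CPM in TRα (-/-) without T3 and 232.8 ± 1.85 CPM in WT with T3 (SD, n = 3 each), with 166.7 CPM in TRα (-/-) with T3 and 49.4 CPM in WT without T3.

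A mitochondrial gene with no name here, on the plus strand from 69 to 1011, had 4789, 5213 and 6104 counts in TRα (-/-) without T3, against 2019, 7117 and 2125 counts in WT with T3. Replicate 2 of WT with T3 stood far above the other libraries of its group at this gene. At another unnamed gene on that strand, from 1082 to 2716, WT with T3 had 155712, 231139 and 151534 counts. These counts are not scaled for depth, and at this second gene they roughly followed the library totals given below. Between the 2 groups that second gene differed by 0.30 on the log2 scale. Over all genes, pairs with replicate 2 of WT with T3 had chi-square per degree of freedom of 11.1 and 10.7, against 4.25 for the remaining pair. That measure can rise with depth, and replicate 2 was the deepest, at 52430305 counts against 35530816 and 38312953. In median absolute log2 CPM difference the pairs of WT with T3 lay at 0.067 to 0.081, against 0.086 to 0.109 in TRα (-/-) without T3.

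The ratio of COX1 over ATP6 counts was highest in replicate 3 of each of the 4 groups, at 7.004 in TRα (-/-) without T3 and 3.804 in WT with T3, and at 5.64 in TRα (-/-) with T3 and 13.9 in WT without T3. The labels do not say what the replicate number marks, and over all genes same-numbered libraries showed no such likeness.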
